A study of Homo sapiens with 19 samples.

Results

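The genes described here are 10 genes for actins and for proteins that bind or move actin filaments: ACTB, ACTG1, ACTA2, TPM1, TPM2, TNNC1, CNN1, TAGLN, MYL9 and PDLIM1. They are 10 of the 24198 genes of the RNA table, of which 11671 had a mean of 1 FPKM or more over both libraries and were measured. All 10 genes passed that filter. The symbols were chosen by name with the RNA ratios and peaks of these same libraries already known, so the values of the 10 genes are a description, with no test. FPKM are fragment numbers divided by transcript length and by the size of the library.

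The data came from U2OS, an established human osteosarcoma cell line. Cells received EP400 siRNA or a mock siRNA directed against GFP and were harvested 72 hr later. EP400 is an ATPase that, within the TIP60 complex, remodels nucleosomes and deposits H2A.Z and H3.3, variants of histones H2A and H3. RNA-seq and chromatin immunoprecipitation (ChIP) of Pol II, H3.3, H2AZ and the Mediator subunit MED26 had 1 library per condition. The histone marks H3K18ac and H3K4me1, which mark active promoters and enhancers, were profiled in mock cells alone. The 3 EP400 immunoprecipitations came as 1 list of peaks, and their labels name no siRNA. With 1 library per condition no difference below has a replicate check, a test or a p-value, and effects of the siRNA and differences between 2 libraries cannot be told apart.

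Actin polymerises into filaments that give cells their shape and carry tension. Tropomyosins lie along the filament, troponin C is the calcium sensor of the striated muscle thin filament, and calponin and transgelin bind filaments in smooth muscle and in many cultured cells. Myosin pulls on actin when its regulatory light chain is phosphorylated. Many of these genes are known targets of serum response factor (SRF), whose MRTF coactivators bind unpolymerised actin and enter the nucleus when that pool falls, so the genes report on the state of the filaments they build.

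EP400 RNA itself was at 10.04 FPKM in mock cells (authors' limits 0.165 to 19.9) and 2.28 FPKM after EP400 siRNA (0.162 to 4.41), which is 22.8% of mock. The sequencing depth is unknown because the table holds no counts. FPKM summed over rows of 200 nt or more to 626424 in mock cells and 366796 after EP400 siRNA, and genes of higher level had lower ratios. The median log2 ratio was -0.20 over all genes and -0.93 in the highest quintile of mean FPKM, where 7 of the 10 genes lay. Of the osteoblast markers 5 of 10 were measured, of which 1 was at least 2-fold lower, COL1A1 (376 and 60.8 FPKM), and 1 higher, ALPL (2.31 and 7.75 FPKM). SPP1 was at 4.34 and 7.46 FPKM, SPARC at 229 and 179 FPKM and RUNX2 at 1.51 and 0.697 FPKM, while IBSP was listed at 0. The osteoblast list summed to 614.5 FPKM with mock siRNA and 256 FPKM with EP400 siRNA. The epithelial list, led by KRT8 and KRT18, summed to 958.5 and 443 FPKM with CDH1 and EPCAM below 1 FPKM. Of its 6 genes 4 were measured, of which 3 were at least 2-fold lower and 0 higher, beside 22.9% and 6.11% of all measured genes. Lower were KRT8 (369 and 115 FPKM), CLDN4 (63.4 and 10.9 FPKM) and KRT14 (6.22 and 0.991 FPKM). Among skeletal muscle markers 1 of 10 was measured (ACTA1; list sums 28.4 and 12.1 FPKM, MYF5 at 0), among heart markers 4 of 10 (59.0 and 32.1 FPKM), and among smooth muscle markers 1 of 10 (SMTN; 70.7 and 42.2 FPKM). The part of these levels in the values of the 10 genes was not tested.

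RNA of all 10 genes was lower after EP400 siRNA, by between 1.23-fold (TPM2) and 36.9-fold (TNNC1) in FPKM. At least 2-fold lower log2 ratios were seen for 7 of the 10 genes and at least 2-fold higher ones for 0, where 22.9% of all measured genes were lower and 6.11% higher. In the highest quintile of mean FPKM 45.2% of genes were lower. The log2 ratio here is that of FPKM + 1, so for genes of low level it is smaller than the true difference. Its median over the 10 genes was -1.60. Nothing is read from these counts, because the genes were chosen with these RNA values known. In bulk RNA, fewer cells with a transcript and less of it per cell cannot be told apart.

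**Figure D1:**
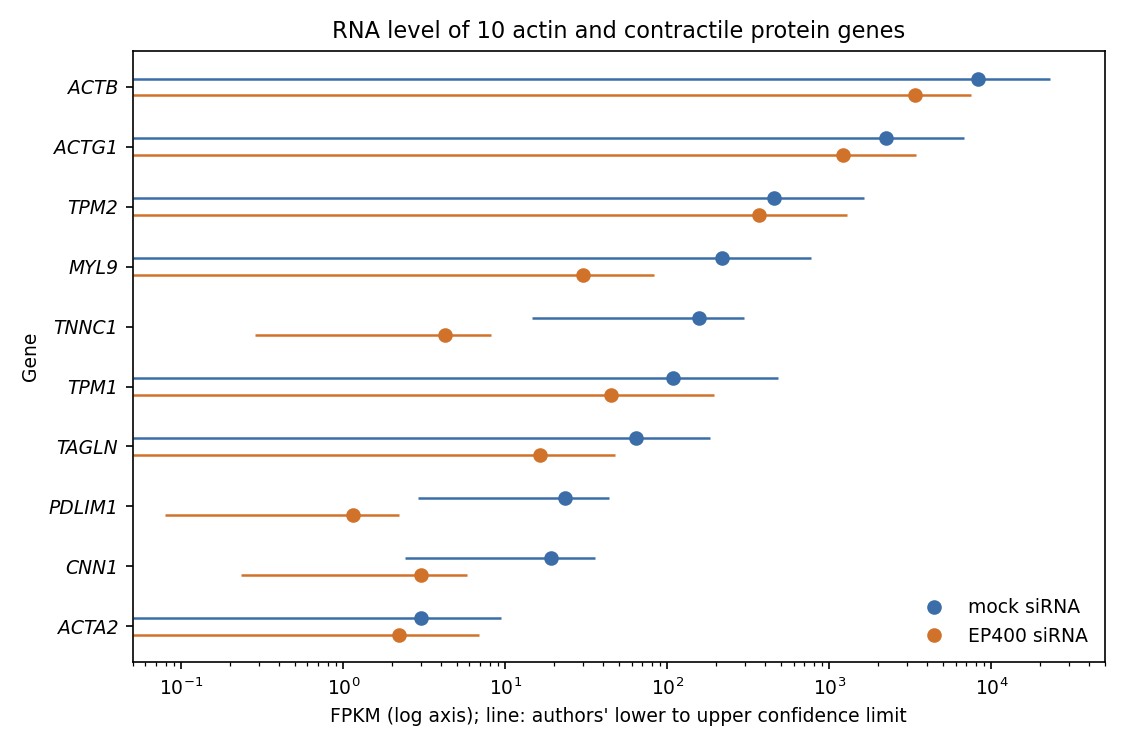
RNA level of the 10 genes in FPKM (log axis) in mock cells (blue) and after EP400 siRNA (orange), 1 library each; lines run from the authors' lower to upper confidence limit, and a line that reaches the left edge has a lower limit at or below the axis. The lines of TNNC1 and PDLIM1 do not overlap between conditions, and those of the other 8 genes do.

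The cytoplasmic actins dominated the sum. ACTB, which encodes beta-actin, stood at 8214 FPKM in mock cells (limits 0 to 22942) and 3348 FPKM after EP400 siRNA (0 to 7441). It ranked 4 by level among all measured genes in mock cells and 3 after EP400 siRNA, so it stayed among the most abundant RNAs at 40.8% of its mock level. ACTG1, which encodes gamma-actin, stood at 2248 FPKM (0 to 6742) and 1216 FPKM (0 to 3417), which is 54.1% of mock. For both genes the limits overlap between the conditions. ACTB and ACTG1 together held 90.9% of the summed FPKM of the 10 genes in mock cells and 90.7% after EP400 siRNA, while that sum went from 11504 to 5034 FPKM. ACTB exceeded ACTG1 3.65-fold in FPKM in mock cells and 2.75-fold after EP400 siRNA. The actin family has near-identical processed pseudogenes, and the assignment of reads shared with them is not given in the sources used here. In the table the 4 pseudogene rows of ACTB and ACTG1 summed to 42.4 and 23.2 FPKM. ACTA2, the smooth muscle alpha-actin, was the least abundant of the 10 in mock cells, at 3.02 FPKM (0 to 9.41) and 2.19 FPKM (0 to 6.83).

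TNNC1 and PDLIM1 showed the lowest ratios. TNNC1, which encodes the troponin C of heart and slow skeletal muscle, was at 156 FPKM in mock cells (14.6 to 297) and 4.22 FPKM after EP400 siRNA (0.283 to 8.16). Its log2 ratio of -4.91 was the lowest of all 11671 genes. PDLIM1, a PDZ and LIM domain protein that links alpha-actinin on stress fibres to other proteins, was at 23.3 FPKM (2.89 to 43.6) and 1.14 FPKM (0.0792 to 2.20), a log2 ratio of -3.50 and rank 11 from the lowest. For these 2 genes the authors' limits in the conditions were apart, which held for 15 lower genes in all (0.129% of those measured). The limits of the other 8 genes overlapped between conditions.

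MYL9, CNN1 and TAGLN came next. MYL9, the regulatory light chain of smooth muscle and nonmuscle myosin, was at 216 FPKM (0 to 765) in mock cells and 29.99 FPKM (0 to 82.6) after EP400 siRNA, a log2 ratio of -2.81. CNN1, which encodes the calponin typical of smooth muscle, was at 18.99 FPKM (2.41 to 35.6) and 3.02 FPKM (0.235 to 5.80), a log2 ratio of -2.32. TAGLN, which encodes the actin-binding protein transgelin (SM22), was at 64.1 FPKM (0 to 183) and 16.4 FPKM (0 to 47.7), a log2 ratio of -1.91. These 3 genes fall between the extreme pair and the actins, at 13.9%, 15.9% and 25.5% of their mock levels.

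The tropomyosin genes differed from each other. TPM1 was at 108 FPKM (0 to 484) in mock cells and 44.8 FPKM (0 to 193) after EP400 siRNA, a log2 ratio of -1.25. TPM2 was at 452 FPKM (0 to 1631) and 368 FPKM (0 to 1291), a log2 ratio of -0.30. TPM2 therefore exceeded TPM1 4.19-fold in FPKM in mock cells and 8.21-fold after EP400 siRNA. Both genes make several proteins by alternative splicing, and the table splits them into transcript rows. Of the 4 TPM2 rows, NM_001301226 went from 288 to 177 FPKM and NM_213674 from 136.7 to 174.7 FPKM, so the share of the latter in TPM2 was 30.2% and 47.5%. The authors' limits of that row, 0 to 471 and 0 to 438 FPKM, cover the difference. TPM1 was led in both libraries by NM_001018006, with 70.0% and 68.1% of its FPKM. Over all 10 genes 23 of 26 transcript rows had a value above 0, of which 21 were lower and 2 higher after EP400 siRNA. The other higher row was NM_001613 of ACTA2, at 0.511 and 0.563 FPKM.

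The sign of the smallest ratios depended on how the libraries were scaled. Rescaling both libraries to the same sum (TPM), which raised the log2 ratio of the median gene by 0.68, left TNNC1 (-4.32), PDLIM1 (-3.21), MYL9 (-2.06), CNN1 (-1.76) and TAGLN (-1.18) at least 2-fold lower. On that scale ACTB (-0.52), TPM1 (-0.49) and ACTG1 (-0.11) were lower by less, and ACTA2 (0.26) and TPM2 (0.47) were above 0. Centring on the median of all genes left 7 of 10 at least 2-fold lower, as did centring by the number of loci within 500 kb and centring by chromosome. Of all measured genes 5.97% were at least 2-fold lower on rescaling and 15.6% with median centring. With centring by density the share was 10.8%, and by chromosome 13.5%. The 5 genes with the lowest ratios thus stayed at least 2-fold lower under each of these 4 scalings, whereas the direction of TPM2, ACTA2 and ACTG1 turned under at least 1 of them. Nothing is read from these counts, because the genes were chosen with these RNA values known.

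**Figure D2:**
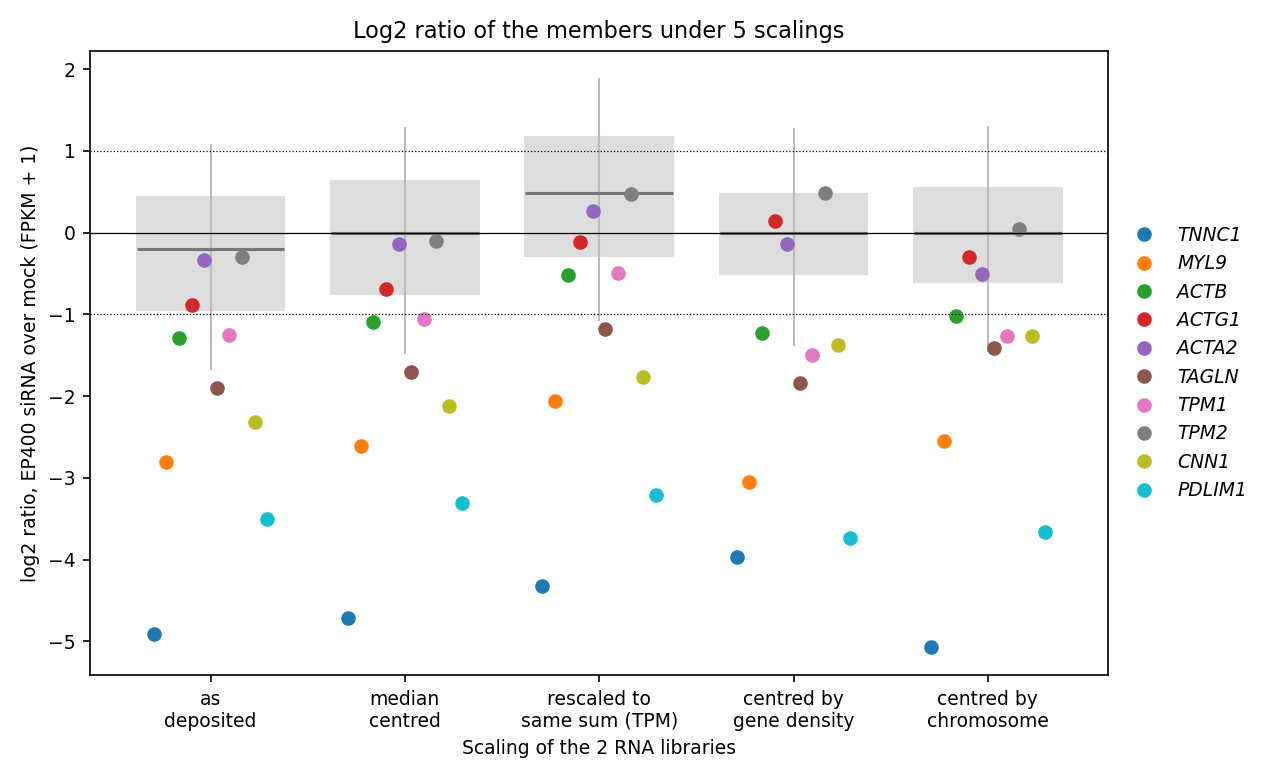
Log2 ratio of FPKM + 1 (EP400 siRNA over mock) of each gene, as a point, under 5 scalings of the RNA libraries; grey boxes span the quartiles of all 11671 genes, the line inside is the median, thin lines run from percentile 5 to 95, and dotted lines mark 2-fold. TNNC1, PDLIM1 and MYL9 lie below percentile 5 of all genes under every scaling, and TPM2 moves from -0.30 as deposited to 0.47 on rescaling.

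Related genes of the same pathways went in both directions. The 6 lists hold 108 entries of related genes, of which 84 were measured. At least 2-fold lower were 28 of the 84 (33.3%) and at least 2-fold higher 7, and 42 of the 84 lay in the highest quintile of mean FPKM. Their median log2 ratio was -0.42, below that of all genes (-0.20) and above that of the highest quintile (-0.93). The balance depended on scaling: on rescaling to the same sum 7 were lower and 27 higher, where 5.97% and 31.5% of all genes were. The counts of each list below are as deposited, beside 22.9% lower and 6.11% higher of all genes (45.2% lower in the highest quintile), and each is followed by its split on rescaling.

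Among other actins 1 of 4 genes was measured, the skeletal muscle actin ACTA1, at 26.97 FPKM with mock siRNA and 11.2 FPKM with EP400 siRNA (log2 ratio -1.20, and -0.48 on rescaling). Thin filament regulators were split, with 4 of 11 lower, 3 higher and a median log2 ratio of 0.52 (2 lower and 6 higher on rescaling, median 1.29). Lower were the cardiac troponin T gene TNNT2 (10.5 and 0.809 FPKM), the calponin gene CNN2 (146 and 39.4 FPKM) and the slow skeletal troponin T gene TNNT1 (193 and 79.1 FPKM). TAGLN2, a relative of TAGLN, was also lower (1626 and 746 FPKM). The tropomyosin gene TPM3, in contrast, was at 22.3 FPKM (0 to 119) with mock siRNA and 54.9 FPKM (0 to 247) with EP400 siRNA. TAGLN3, another relative of TAGLN, was higher as well, from a low level (0.258 and 6.03 FPKM). The authors' limits overlapped between conditions for TPM3 and for every other gene named from the related lists. Of the 13 measured genes for myosins and their control 5 were lower and 0 higher (1 lower and 4 higher on rescaling). The lowest were the essential light chains MYL6 (918 and 264 FPKM) and MYL6B (203 and 65.9 FPKM) and PPP1R14B (366 and 122 FPKM), which encodes a myosin phosphatase inhibitor. The nonmuscle regulatory light chains MYL12A (68.2 and 95.1 FPKM) and MYL12B (254 and 354 FPKM), close relatives of MYL9 chosen for that reason after their values were seen, differed by less than 2-fold in the other direction.

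PDZ-LIM, crosslinking and adhesion proteins had 6 of 20 genes lower and 0 higher, with a median of -0.81 (0 lower and 3 higher on rescaling, median -0.04). The lowest were PDLIM2 (161 and 53.8 FPKM), a relative of PDLIM1, the filament crosslinker filamin A, FLNA (540 and 187 FPKM), and the focal adhesion adaptor TGFB1I1 (33.4 and 11.3 FPKM). Actin filament dynamics had 7 of 28 lower and 3 higher with a median of -0.21 (2 lower and 10 higher on rescaling, median 0.55). At the low end were the capping protein CAPG (110 and 24.3 FPKM), the actin monomer binding protein TMSB4X (452 and 123 FPKM) and the severing protein gelsolin, GSN (31.8 and 10.2 FPKM). The Arp2/3 subunit genes ACTR2 and ACTR3 were among the 3 higher genes, at 7.22 and 15.6 FPKM and at 4.65 and 14.96 FPKM. ARPC1B, of the same complex, was among the 7 lower genes, at 281 and 136 FPKM. Its other subunit genes in the list differed by less than 2-fold, some up and some down. Among the transcription factors and coactivators 5 of 11 were lower and 1 higher with a median of -0.41 (2 lower and 4 higher on rescaling, median 0.12). TEAD2 was at 43.5 and 8.34 FPKM, the MRTF gene MRTFA at 35.0 and 9.78 FPKM and TEAD3 at 32.2 and 10.5 FPKM. SRF itself was at 35.5 FPKM with mock siRNA and 13.97 FPKM with EP400 siRNA. The 1 higher gene was TEAD1, at 4.06 and 9.78 FPKM.

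**Figure D3:**
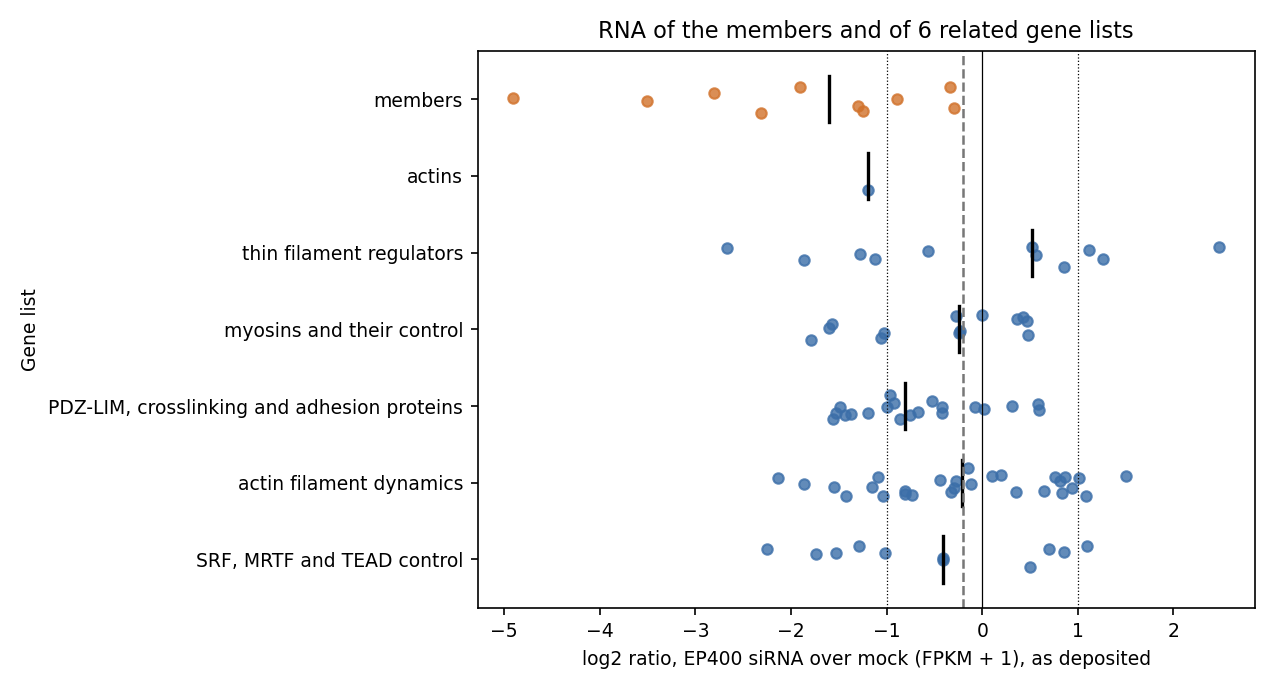
Log2 ratio of FPKM + 1 (EP400 siRNA over mock, as deposited) of each measured gene among the 10 genes (orange) and in 6 lists of related genes (blue); black bars are list medians, the dashed line is the median of all genes (-0.20) and dotted lines mark 2-fold. The 10 genes, chosen with these values known, lie at or below -0.30, while each list other than the actins (1 gene) holds genes on both sides of 0.

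Promoter sequence was read for the members with an entry in a RefSeq table of GRCh38.p14 (ACTG1, ACTA2, PDLIM1, TPM1, TPM2 and CNN1; TNNC1, MYL9, ACTB and TAGLN have none). The 250 bases before each start were searched on both strands for the CArG box bound by SRF, for GGGCGG (an Sp1 box), for CCAAT and for GGAATG (bound by TEAD factors). The CArG box was searched as CC, then 6 bases of A or T, then GG. Variants of that string and sites outside the 250 bases were not searched, so a gene without a match may still hold a CArG box. A gene was counted if any of its promoters held the motif. A CArG box was found in 1.16% of all 35116 promoters and 1.44% of all 27305 genes of the table, in 1 of these 6 genes (ACTG1, at position -94 from the start) and in 17 of 94 related genes with an entry. GGGCGG was found in 42.6% of promoters and 46.2% of genes, in 6 of these 6 and in 79 of the 94. CCAAT was found in 32.0% of promoters and 37.0% of genes, in 2 of 6 (ACTG1 and CNN1) and in 48 of the 94. GGAATG was found in 11.9% of promoters and 14.3% of genes, in 1 of 6 (ACTA2) and in 26 of the 94. A match is a string in the sequence and says nothing about binding. The 150 bases before the start are printed for 3 genes that differ at that end in the peak lists below: ACTG1 (minus strand, chr17:81512800-81512949), with wide Pol II peaks in both conditions, PDLIM1 (minus strand, chr10:95291004-95291153), with next to none, and CNN1 (plus strand, chr19:11538701-11538850), with Pol II in mock cells alone. Capitals mark the CArG box in ACTG1, the 8 matches to GGGCGG on either strand in PDLIM1, and CCAAT in CNN1.
ACTG1: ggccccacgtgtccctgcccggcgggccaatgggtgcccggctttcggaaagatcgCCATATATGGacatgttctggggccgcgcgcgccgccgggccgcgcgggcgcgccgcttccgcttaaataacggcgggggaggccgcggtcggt
PDLIM1: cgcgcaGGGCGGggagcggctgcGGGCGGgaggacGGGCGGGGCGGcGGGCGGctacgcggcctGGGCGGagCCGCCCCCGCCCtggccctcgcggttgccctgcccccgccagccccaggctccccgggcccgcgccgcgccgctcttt
CNN1: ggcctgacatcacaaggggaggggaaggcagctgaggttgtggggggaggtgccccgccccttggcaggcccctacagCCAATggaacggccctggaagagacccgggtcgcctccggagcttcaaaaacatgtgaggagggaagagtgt
The stretch of PDLIM1 is 86% G and C, that of ACTG1 72.7% and that of CNN1 64%. The peaks have hg19 coordinates, so these GRCh38 stretches were not laid over them.

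Peaks were compared at the locus the RNA table gives for each gene, in hg19 coordinates counted from 1. A locus joins all transcripts that overlap, whatever their strand, and the gene ends are the windows that reach 2 kb to either side of its first and last base. The lists hold positions with no height, so presence and covered length are what can be compared. ACTB (chromosome 7, 5566778 to 5570232), ACTG1 (chromosome 17, 79476996 to 79479892), TNNC1 (chromosome 3, 52485106 to 52488057), TPM1 (chromosome 15, 63334837 to 63364113), TPM2 (chromosome 9, 35681989 to 35690053), CNN1 (chromosome 19, 11649578 to 11661138) and PDLIM1 (chromosome 10, 96997324 to 97050905) have loci of their own. MYL9 shares a locus with DLGAP4 and DLGAP4-AS1 (chromosome 20, 34894244 to 35201678), TAGLN with SIDT2 and LOC100652768 (chromosome 11, 117049938 to 117075508), and ACTA2 with FAS, ACTA2-AS1 and FAS-AS1 (chromosome 10, 90692440 to 90775542). Peaks in these 3 shared loci cannot be assigned to the member.

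EP400 had a peak at an end of 5 of the 10 genes (MYL9, ACTB, ACTG1, TPM1 and TPM2). The share over all measured genes was 35.3%, and 48% in the highest quintile, so the count is near that of genes of like level. The MYL9 peak lies in the neighbouring locus of RAB5IF and TGIF2. ACTB carried 5 EP400 peaks within 2 kb of its locus and TPM1 carried 7, of which 4 lay together inside the locus (63338901 to 63341450). The widest EP400 peak at any of the 10 genes, 500 bp at ACTG1 (79479501 to 79480000), ranked 83 by width of 18048. PDLIM1 had 3 EP400 peaks inside its locus and none at an end. TNNC1, with the lowest RNA ratio, had none within 5 kb, and the nearest of CNN1 (11646851 to 11646950) lay outside the 2 kb window.

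**Figure D4:**
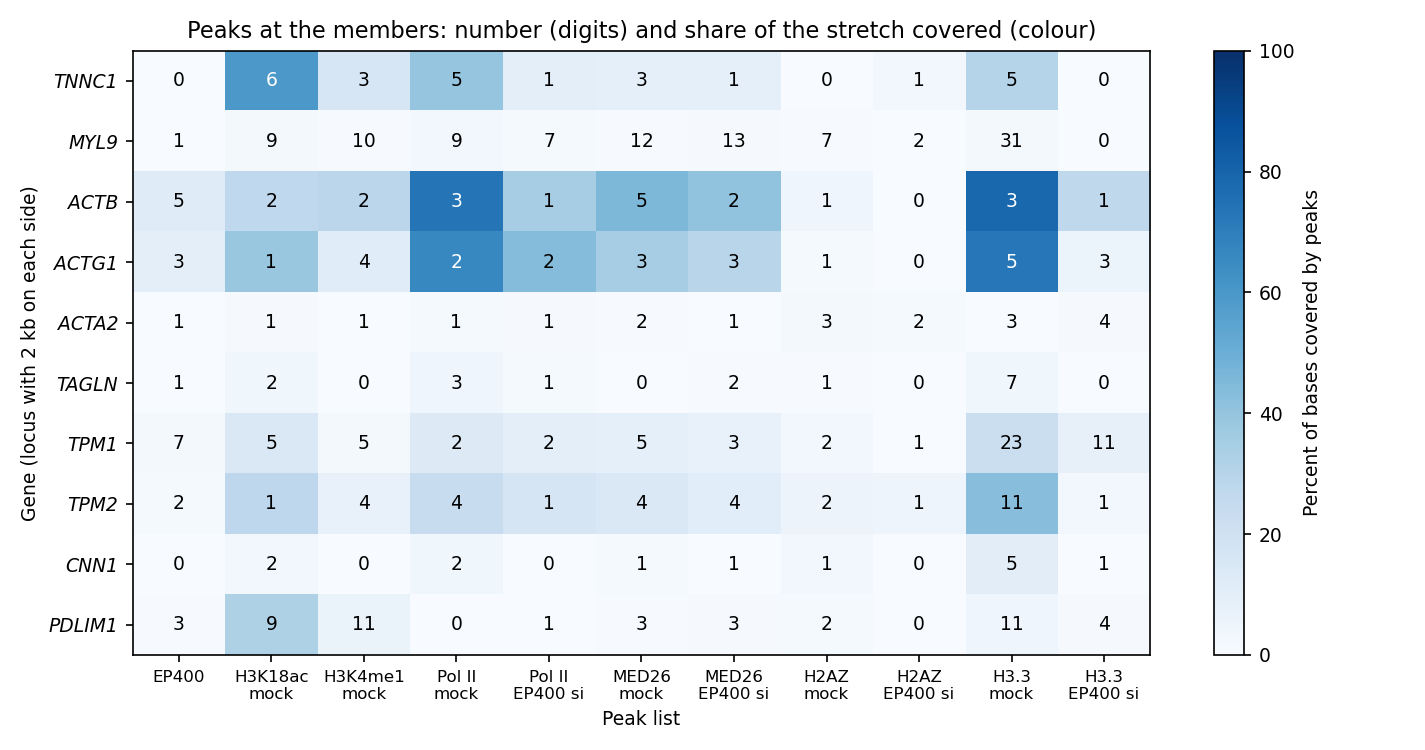
Number of peaks (digits) and percent of bases covered by peaks (colour) in the locus of each gene with 2 kb on each side, for 11 peak lists. H3.3 falls from between 3 and 31 peaks per gene in mock cells to 0 at TNNC1, MYL9 and TAGLN after EP400 siRNA, and ACTB and ACTG1 have the darkest cells for Pol II and H3.3 in mock cells.

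Pol II, which transcribes these genes, covered fewer bases after EP400 siRNA at all 9 genes it covered in mock cells, counted over the locus with 2 kb on each side. This held for 87.4% of all covered genes and 92.9% of those in the highest quintile, and the whole Pol II list fell from 30760 to 20987 peaks. ACTB went from 5500 to 2600 bp covered, ACTG1 from 4592 to 2992 bp, TPM1 from 4300 to 3200 bp and TPM2 from 2900 to 2000 bp. These 4 genes kept a Pol II peak at an end. The ACTG1 peak was among the widest of both lists, 4800 bp in mock cells (79477901 to 79482700, rank 46) and 3400 bp after EP400 siRNA (79479001 to 79482400, rank 26). Summed over the 10 loci alone, covered bases went from 17734 to 9119, which is 51.4%, beside 61.5% for the whole list. Of the 17734 bp, 5478 lay in the locus that MYL9 shares with DLGAP4. With 2 kb on each side the sum went from 30427 to 16992 bp, and the median gene covered in mock cells kept 64.7%. No greater loss of Pol II at the 10 genes is read from these values.

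Pol II had a peak at an end of 8 of the 10 genes in mock cells (85.3% of all genes) and of 8 after EP400 siRNA (80%). It was lost at the ends of 1 of the 8 genes, CNN1, beside 7.27% of all genes and 6.2% in the highest quintile. Within the locus it was lost from 3 of 9 genes (TNNC1, TAGLN and CNN1), beside 7.53% of all genes. At TNNC1 3 mock peaks overlapped the locus (52485101 to 52485300, 52486201 to 52486300 and 52487801 to 52488500) and 0 did after EP400 siRNA. The Pol II peak that remained near TNNC1 (52489301 to 52490000) overlaps NISCH, whose locus starts 1466 bp away and whose RNA was at 23.5 and 8.01 FPKM. At CNN1 the mock peak at the low-coordinate end (11649601 to 11650100), the end that RefSeq gives as its start side, had no counterpart, while the peak upstream of it (11646701 to 11647100) had one (11646901 to 11647100). In the TAGLN locus the mock peaks at 117069701 to 117070100 and 117070501 to 117070700 were lost and the one at the SIDT2 side (117049401 to 117050000) was kept as 117049501 to 117049900. PDLIM1 differed from these: at 23.3 FPKM it had no Pol II peak in mock cells, and at 1.14 FPKM it had 1 of 100 bp (97050601 to 97050700). Of all genes with no Pol II at an end in mock cells, 5.85% had it there after EP400 siRNA.

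**Figure D5:**
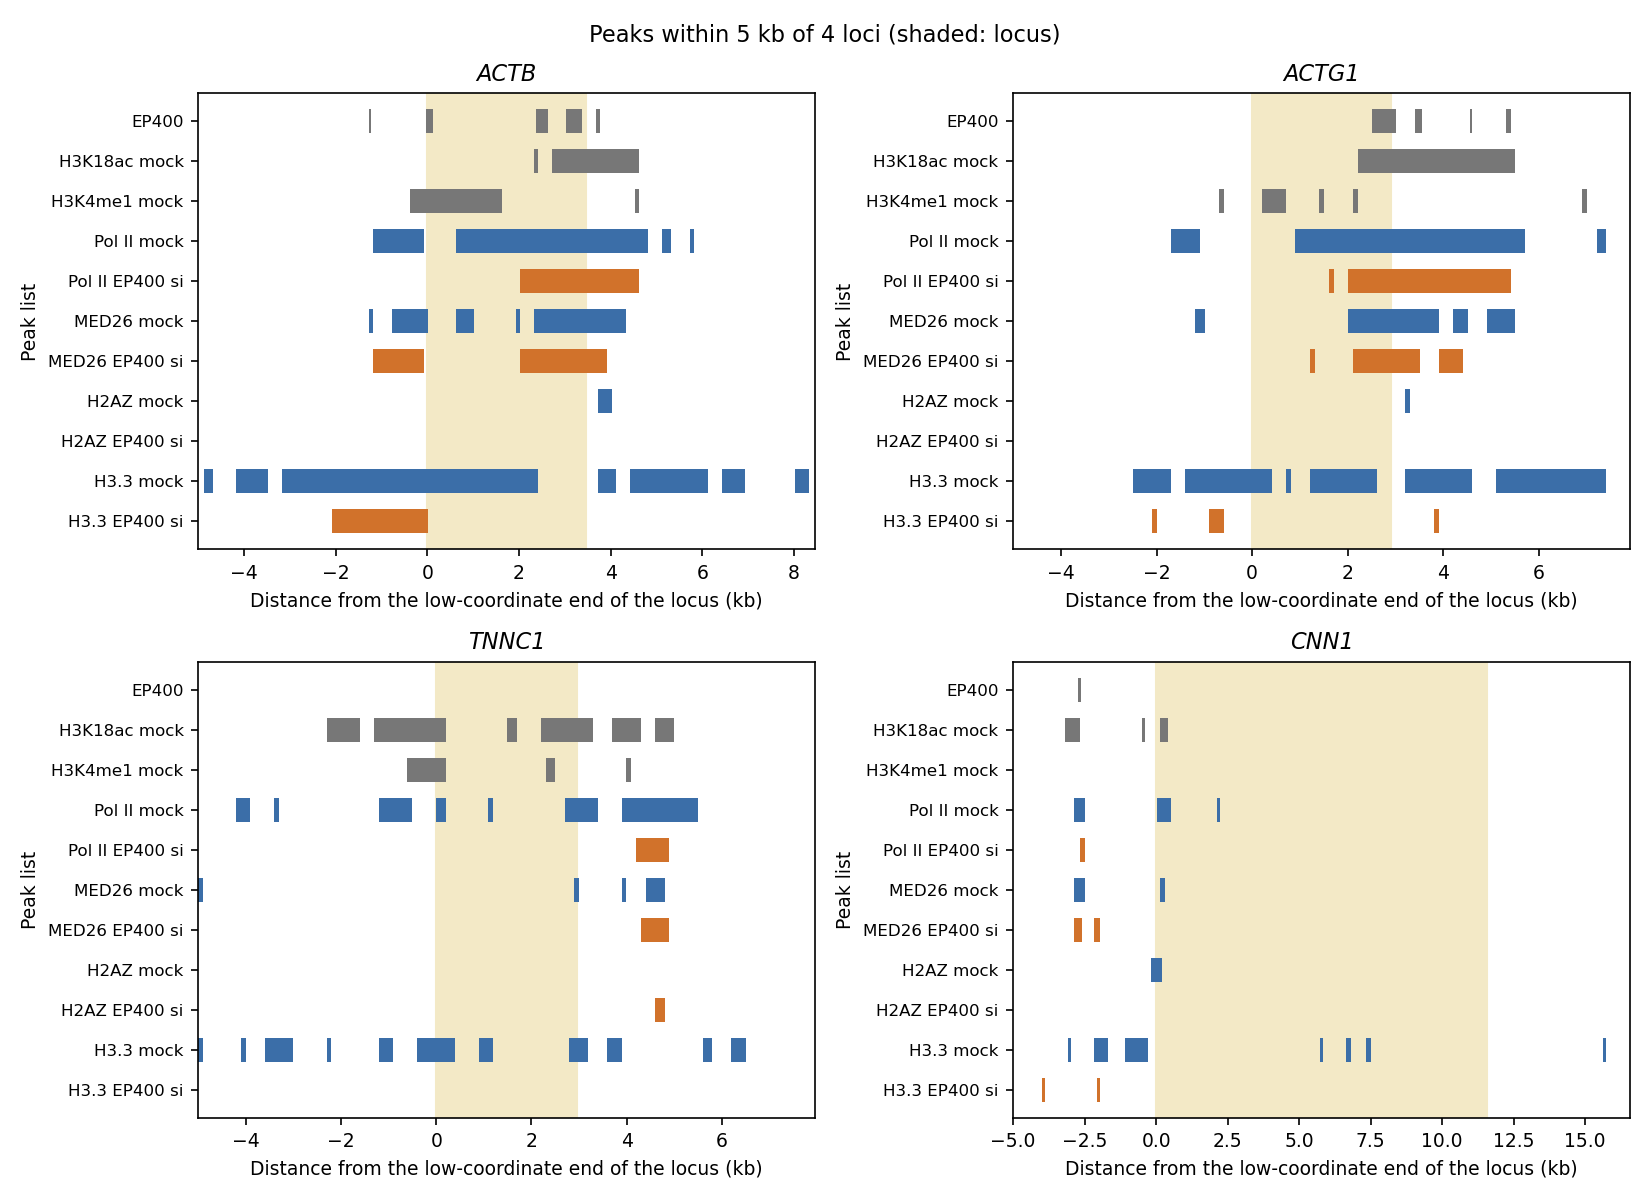
Peaks within 5 kb of the loci of ACTB, ACTG1, TNNC1 and CNN1, by distance in kb from the low-coordinate end of the locus (shaded); blue bars are mock lists, orange bars lists after EP400 siRNA, grey bars lists with 1 condition. Inside TNNC1 every blue Pol II, MED26 and H3.3 bar lacks an orange counterpart, whereas ACTB and ACTG1 keep bars for both Pol II and MED26.

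H3.3, the replacement histone found over transcribed genes, covered 26192 bp of the 10 loci in mock cells and 3836 bp after EP400 siRNA, which is 14.6%, beside 40.1% for the whole list. For H2AZ the shares were 41.5% in the 10 loci and 37.5% for the whole list, and for MED26 86.9% and 78.0%. Within 2 kb of the loci H3.3 covered 38114 bp in mock cells and 6651 bp after EP400 siRNA, and 9 of 10 genes had fewer bases covered. The share of all covered genes with fewer bases was 78.9%, and 91.7% in the highest quintile. In these windows the median gene covered in mock cells kept 8.70% of its H3.3 bases, far below the 40.1% of the whole list. The whole list is therefore no measure of a usual gene, and no greater loss of H3.3 at the 10 genes is read from it. For H2AZ the median gene kept 33.3% and for MED26 80%. TNNC1 (2100 bp), MYL9 (6978 bp) and TAGLN (1100 bp) went to 0, ACTG1 went from 5005 to 405 bp, and TPM2 from 5153 to 300 bp. ACTB kept 2023 of 5855 bp and TPM1 2600 of 7400 bp. ACTA2 went the other way, from 300 to 800 bp, in a locus it shares with FAS. At gene ends H3.3 had a peak at 10 of 10 genes in mock cells (69.1% of all genes, 87.8% in the highest quintile). After EP400 siRNA it had one there at 6 (34.3% of all genes, 42.5% in the highest quintile). The 4 genes that lost it there were TNNC1, MYL9, TAGLN and PDLIM1, beside 58.1% of all genes and 53.8% in the highest quintile. At CNN1 the peak that counts as kept (11647501 to 11647600) reaches 23 bp into the window. At ACTA2 the end peak after EP400 siRNA (90693901 to 90694000) overlaps no mock peak of H3.3. Within the locus 6 of 10 lost it, beside 44.7% of all genes. Both counts are near those of other genes.

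The H3.3 peak over ACTB was among the widest anywhere, 5600 bp in mock cells (5563601 to 5569200, rank 9 of 79838) and 2100 bp after EP400 siRNA (5564701 to 5566800, rank 56 of 41439). What remained lay at the low-coordinate end and beyond it, where EP400 and mock Pol II and MED26 peaks also lie. Of 87 mock H3.3 peaks in the 10 loci 7 (8.05%) overlapped a peak after EP400 siRNA, beside 5.01% of the whole list.

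H2AZ is the histone variant placed beside the starts of active genes. In mock cells it had a peak at an end of 7 of the 10 genes (75.1% of all genes, 73.3% in the highest quintile). After EP400 siRNA it had one at an end of 3 (55.4% of all genes, 48.3% in the highest quintile). It was lost at 5 of the 7 (ACTB, ACTG1, TAGLN, TPM1 and CNN1). Of all genes 28.2% lost it, and 37.5% in the highest quintile. Within the locus it was lost from 2 of 5 genes, beside 36.2% of all genes. Over the locus with 2 kb on each side all 9 genes covered in mock cells had fewer bases covered, as had 89.5% of all genes and 88.8% in the highest quintile. The mock peaks at these ends were short, for example 300 bp at ACTB (5570501 to 5570800) and 100 bp at ACTG1 (79480201 to 79480300). TPM2 kept 600 of 700 bp covered and MYL9 700 of 2200 bp in its shared locus. The H2AZ peak gained near TNNC1 (52489701 to 52489900) again overlaps NISCH, and 5.85% of all genes without H2AZ at an end in mock cells had it there after EP400 siRNA. Using the wider peaks of each list, or equal numbers of peaks, 3 genes lost H2AZ in place of 5.

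MED26, a Mediator subunit that recruits elongation factors to Pol II, had a peak at an end in both conditions at all 7 genes that had one in mock cells, where 78.8% of all genes had one. The peaks were not the same ones at every gene. At CNN1 the mock peak had no counterpart, and the peak after EP400 siRNA (11647401 to 11647600) is another one that reaches 23 bp into the window. At MYL9 no end peaks of the conditions overlapped, and at TNNC1 the peak with a counterpart overlaps NISCH. Of all genes 7.28% lost it, and 3.66% in the highest quintile. After EP400 siRNA 9 of the 10 genes had a MED26 peak at an end (75.5% of all genes, 85.9% in the highest quintile). TAGLN and PDLIM1 had one then and none in mock cells, which held for 11.8% of all genes without it in mock cells. Over the locus with 2 kb on each side 6 of 9 genes had fewer bases covered, where 66% of all genes had and 67.6% in the highest quintile. ACTB went from 3400 to 3000 bp, ACTG1 from 2400 to 2000 bp and TPM1 from 3100 to 2500 bp. Within the locus MED26 was lost from TNNC1 and CNN1, 2 of 9 genes, beside 6.78% of all genes. For both genes the MED26 peak within the locus lay where a Pol II peak was lost, 52488001 to 52488100 at TNNC1 and 11649701 to 11649900 at CNN1.

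The marks profiled in mock cells alone describe the starting state. H3K18ac had a peak at an end of 9 of 10 genes (72.8% of all genes, 83.5% in the highest quintile). H3K4me1 had one at an end of 6 of 10 (30.5% of all genes, 44.2% in the highest quintile). PDLIM1 carried 18477 bp of H3K18ac in 9 peaks and 11 H3K4me1 peaks, the widest H3K18ac peak at any of the 10 genes being 5900 bp inside its locus (97019101 to 97025000). An EP400 peak (97019101 to 97019200) lies in that stretch. CNN1 and TAGLN had no H3K4me1 peak within 2 kb of their loci.

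The number of other genes with the same presence or absence at gene ends in all 11 peak lists ranged from 0 for PDLIM1 to 501 for TPM2. TNNC1 shared its pattern with 13 genes, of which 9 were at least 2-fold lower, and the nearest by log2 ratio were FAM171A2 (-1.98), CENPX (-1.63) and DAG1 (-1.63). MYL9 shared its pattern with 357 genes, of which 127 were lower, the nearest being THRA (-2.20), MDK (-2.19) and PKN3 (-2.10). For the patterns of ACTB and ACTG1 69 and 70 of 217 genes were lower, for TPM1 41 of 213 and for TPM2 123 of 501. For TAGLN 5 of 11 were lower, for ACTA2 3 of 41 and for CNN1 0 of 10. Of all measured genes 22.9% were at least 2-fold lower, and 45.2% in the highest quintile. The patterns of TNNC1 and MYL9 rest in part on peaks that overlap neighbouring loci (NISCH for TNNC1, RAB5IF and TGIF2 for MYL9). These likenesses describe 11 lists and support no statement on shared control.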

How the data were processed

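RNA was measured as FPKM, deposited by the authors per transcript row with confidence limits and a status, per the file headers. Bowtie 0.12.9, TopHat2 2.0.8, Cuffdiff 2.0.2 and hg19 are named in the submitters' processing notes. Peak lists hold positions alone, and for the peak caller, its threshold and control the entry is "not given in the sources used here". All 4 inputs were not analysed here.

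RefSeq identifiers gave a symbol for 47555 of 48669 rows (97.7%), through a GRCh38 table used for names. Rows under 200 nt (2116) were left out, the FPKM and limits of the others were summed per gene, and 122 genes with a failed estimate were dropped. Summing limits can overstate the spread of genes with several rows. Peaks were counted by overlap of 1 bp or more. The count of genes with fewer bases covered was added after seeing the data. Scripts used python 3.11.15, pandas 2.3.3 and numpy 2.4.6 and were tested on simulated data.

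The members, the gene lists and the tests were chosen with earlier results of these data known. Named were all 10 genes, EP400, from each related list up to 3 genes (mean FPKM of 5 or more) with the ratio largest in size, up to 3 genes nearest in pattern to each of the 3 members with the ratio largest in size, and at most 2 neighbours of a member. TPM3, TAGLN2, TAGLN3, ACTR2, ACTR3, ARPC1B, SRF, TEAD1, MYL12A, MYL12B and marker genes outside that rule were chosen after their values were seen. Alternatives covered the pseudocount (0.1 and 0.5 in place of 1), the filters, 4 scalings, the width of gene ends and the peaks used. A further marker list is not reported here.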

Additional observations from a re-analysis of the deposited data

How the results depend on the processing

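No paired analysis was possible because the numbered EP400 immunoprecipitations came as 1 pooled list, the inputs were not analysed here, and no result comes from a test. Of the values tried under alternatives, 60 that answer a comparison stayed within 1.5 times and 13 moved. On rescaling to the same sum (TPM) the log2 ratios of ACTA2 (0.26) and TPM2 (0.47) turned above 0, with centring by gene density those of ACTG1 (0.14) and TPM2 (0.48), and with centring by chromosome that of TPM2 (0.044). Related genes at least 2-fold lower numbered 28 as deposited, 7 on rescaling, 13 with centring by density and 17 with centring by chromosome, and those higher numbered 7, against 27 on rescaling and 13 with median centring. Of all genes 22.9%, 5.97%, 10.8% and 13.5% were lower in these settings, and 6.11%, 31.5% and 10.8% were higher. The genes that lost Pol II at an end numbered 1, against 2 with ends of 1 kb, 0 with ends of 5 kb and 2 with the wider peaks of each list. Those that lost H2AZ numbered 5, against 3 with the wider peaks and 3 with equal peak numbers. Those that lost MED26 numbered 0, against 2 with ends of 1 kb and 1 when most of the peak had to lie in the window. EP400 was found at 5 genes, against 8 over the whole locus with 2 kb on each side. The cause of these shifts was not tested. The unknown depth of every library limits what lost or absent peaks can show.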

Other observations

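Genes that lie near the 10 members had lower RNA at some loci and not at others. Within 100 kb of TNNC1 7 other genes were measured, of which 5 were at least 2-fold lower, with a median log2 ratio of -1.44, where 22.9% of all measured genes (45.2% in the highest quintile of mean FPKM) were lower. The nearest were NISCH (23.5 FPKM with mock siRNA and 8.01 FPKM with EP400 siRNA), which encodes an integrin-binding protein, and SEMA3G (3.53 and 0.290 FPKM), which encodes a secreted semaphorin. Near CNN1 3 of 4 measured genes were at least 2-fold lower (median -1.17), near TPM2 3 of 10 (median -0.79), near TAGLN 2 of 7 (median -0.35) and near MYL9 0 of 5 (median -0.70). TNNC1 and CNN1 have 28 and 29 loci within 500 kb. Centring by that number moved their log2 ratios from -4.91 to -3.97 and from -2.32 to -1.38. Genes in regions of like density thus had a median below 0 across the genome. How the neighbours at these loci compare with other genes in regions of like density was not tested. Near ACTB and ACTG1 1 of 3 was lower in each case (both medians -0.85), and near TPM1 1 of 2 (median -0.77). The nearest measured neighbours of ACTB were FBXL18 (27.5 and 14.8 FPKM) and FSCN1 (601 and 194 FPKM), the latter encoding fascin, which bundles actin filaments. Near PDLIM1 1 gene was measured, with a log2 ratio of 0.06, and near ACTA2 the median of 2 genes was 0.77, with STAMBPL1 at 2.22 FPKM with mock siRNA and 9.39 FPKM with EP400 siRNA. The member's own log2 ratio lay below the median of its neighbours at every gene except TPM2 (-0.30), by little at ACTG1 (-0.89). Nothing is read from that order, because the members were chosen with these ratios known and the neighbours were taken by distance. How far a neighbour's level and a member's level move together was not tested.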
